A study of Mus musculus with 18 samples.

Results

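The genes described here are the 10 that were taken by name from the deposited count table of 55487 genes as a panel for retinal stress signalling. They are the cytokines Lif and Cntf, the receptor chains Osmr, Il6st and Lifr, the transcription factor Stat3 and its feedback inhibitor Socs3, the glial filament gene Gfap, the endothelin ligand Edn2 and the growth factor Fgf2. All 10 were found in the table, and all are described in 4 groups of libraries.

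Cytokines of the interleukin-6 family signal through the shared receptor chain gp130, which Il6st encodes. Gp130 pairs with a second chain, LIFR for LIF and, with a CNTF-binding chain, for CNTF, or OSMR for oncostatin M, and the complex activates JAK kinases that phosphorylate STAT3. STAT3 then induces Socs3, whose product blocks gp130 and the JAKs. In injured or degenerating retina this route is best known from Müller glia, which then raise GFAP, and from stressed photoreceptors, which are known to express Edn2 and Fgf2, and LIF is known to be a glial survival signal for photoreceptors.

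Retinas of mice were dissociated and sorted by flow cytometry into live CD11b+ DAPI- cells (the microglia fraction) and live CD11b- DAPI- cells (the non-microglial retina fraction), and each fraction gave 4 libraries from Bmal1f/f mice, called controls, and 5 from Bmal1-mg/-mg mice, called knockouts. Group values below are mean ± SD over these 4 control or 5 knockout libraries. Bmal1f/f mice carry the floxed allele of the clock gene Bmal1 (Arntl in the count table), and Bmal1-mg/-mg is labelled as its microglial knockout. The labels name no recombinase driver, inducing agent, age or sex, so that what the knockouts carry beside the floxed allele is not given here, and they do not say that each library is another mouse, so that p-values measure the spread between these libraries. The 18 libraries held between 32277156 and 47563119 counts, at which 3 counts, taken as the detection limit, are 0.0631 to 0.0929 CPM (counts scaled to library size, with TMM factors in the levels below). Detected genes, those with at least 1 count, numbered 17640 ± 1006 (SD, n = 4) in control retina against 19235 ± 341 (SD, n = 5) in knockout retina, and 19029 ± 323 (SD, n = 4) against 17892 ± 488 (SD, n = 5) in microglia. Arntl was at 20.6, 14.5, 9.34 and 25.5 CPM in control microglia and at 7.98, 1.97, 18.7, 23.0 and 12.8 CPM in knockout microglia, which is a change of -0.44 on the log2 scale (SE 0.62, edgeR adjusted p = 0.999), so that counts over the whole gene do not check the genotype labels. The 14 microglia markers summed to 49622 to 56328 CPM in control microglia and 45890 to 51136 CPM in knockout microglia, against 13.8 to 18.8 and 7.90 to 23.5 CPM in the retina fractions, where Fcrls and Gpr34 had no read in either genotype.

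Of the 10 genes, 1 passed the test between knockout and control retina: Osmr, with at most 2 reads in any control library and 46 to 482 reads in the knockout libraries. Osmr could pass the low-count filter of that test only through the knockouts. Lif and Cntf were at or below the detection limit in every library of all 4 groups. Il6st, Stat3 and Socs3 were higher in control microglia than in control retina, and Fgf2 was lower there. In the knockout comparison of microglia none of the 10 passed. The low-count filter let 7 of the 10 into the retina test (not Lif, Cntf and Gfap), 7 into the microglia test (not Lif, Cntf and Edn2), 8 into the interaction test (not Lif and Cntf) and 5 into the comparison of fractions (Il6st, Lifr, Stat3, Socs3 and Fgf2). The backgrounds to these counts are 1.66% of 15332 genes called between knockout and control retina (1.34% higher and 0.326% lower), 0.115% of 14835 in microglia, 0.469% of 18128 for the interaction and 40.2% of 15188 between the fractions (22.8% higher and 17.4% lower in microglia). The retina and fraction comparisons share the 4 control retina libraries, and the microglia and fraction comparisons share the 4 control microglia libraries. For microglia, 1 of the 7 tested genes had an unadjusted p under 0.05 (Il6st), and DESeq2 and limma voom called 0.

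**Figure D1:**
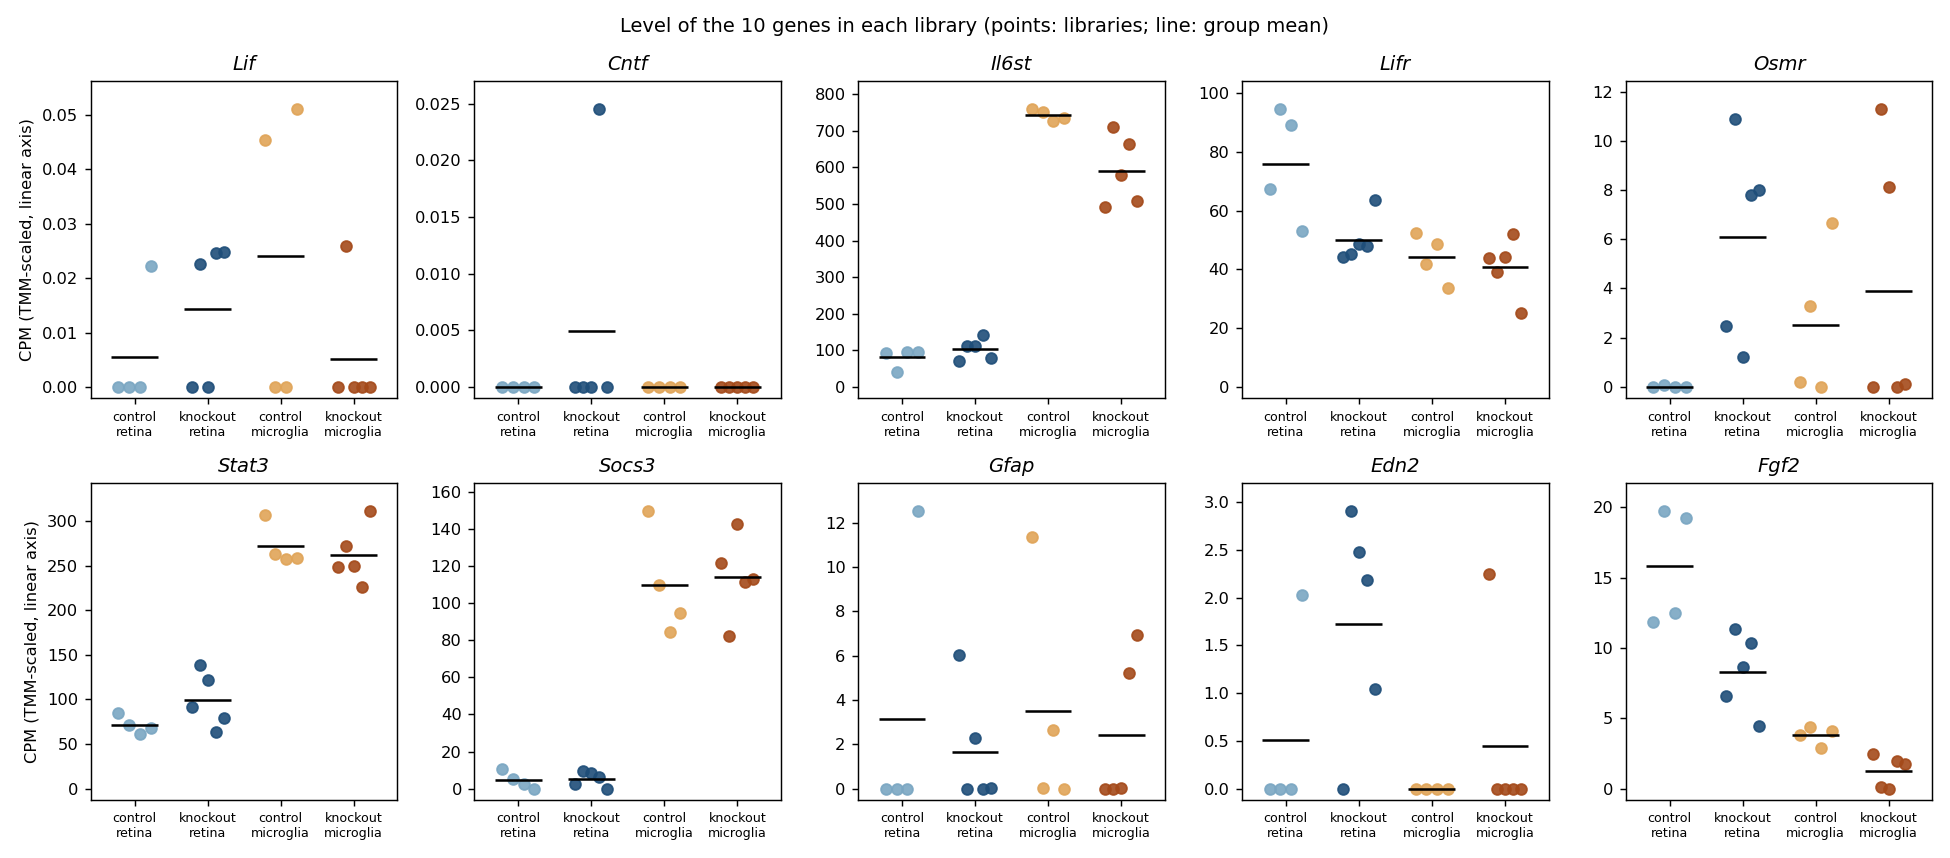
Level of each of the 10 genes in CPM on a linear axis, 1 point per library and a line at the group mean, for 4 control and 5 knockout libraries of each fraction. The 5 knockout retina libraries hold Osmr at 1.21 to 10.9 CPM with the controls at or near 0, Il6st, Stat3 and Socs3 lie far higher in both microglia groups, and Gfap and Edn2 are at 0 in at least 1 library of every group.

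Among the ligands, the 2 members of the panel were not expressed above the detection limit. Lif, a cytokine that glia release in stressed retina, had 1 read over the 4 control retina libraries, 3 over the 5 knockout retina libraries, 4 over control microglia and 1 over knockout microglia. Cntf, the ciliary neurotrophic factor, had 1 read in all, in knockout retina replicate 4. At these depths 3 counts allow up to 0.0929 CPM in a library. The 2 exons of Cntf share 847 of 1073 bases (78.9%) with Zfp91 on the same strand in GENCODE M21, and Zfp91 had 214 to 1755 reads per library, so that reads from Cntf may have been left out or given to Zfp91, depending on a counting rule that is not given in the sources used here.

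The other ligands of the family lay mainly in microglia. Osm, which encodes oncostatin M, a ligand of the receptor that OSMR forms with gp130, had 0 reads in all 9 retina libraries. It was at 12.5, 21.6, 21.9 and 7.29 CPM in control microglia and at 7.63, 0, 20.03, 13.3 and 8.89 CPM in knockout microglia. Osm was therefore seen in every control microglia library and in 4 of 5 knockout ones, at levels that overlap between genotypes (log2 change -0.67, SE 1.13, edgeR adjusted p = 0.999). Between control fractions it was at least 903-fold higher in microglia per total count, with the floor of 3 counts over the group (edgeR adjusted p = 0.000484). Il6, the founding member of the family, was at 2.02 ± 1.02 CPM (SD, n = 4) in control microglia and had 1 read in control retina, a ratio of 339 with a 95% counting interval of 60.3 to 13412 (edgeR adjusted p = 0.000765). The counting intervals given here and below cover counting error only, not the spread between libraries. Clcf1, a ligand for the CNTF receptor, was at 18.9 ± 5.80 CPM in control microglia and 1.51 ± 1.76 CPM in control retina (SD, n = 4 each). In the retina test 2 of the 10 ligand genes passed the filter, Clcf1 and Ctf1 (cardiotrophin 1), with log2 changes of 0.38 (SE 1.75, edgeR adjusted p = 0.968) and 0.03 (SE 1.16, edgeR adjusted p = 0.999). The ligand list had 0 calls in retina and 0 of 5 tested in microglia by edgeR, DESeq2 and limma voom alike, with 0 unadjusted p-values under 0.05. Its median log2 change was 0.20 in retina and 0.05 in microglia, against 0.00 and -0.01 over all genes tested.

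**Figure D2:**
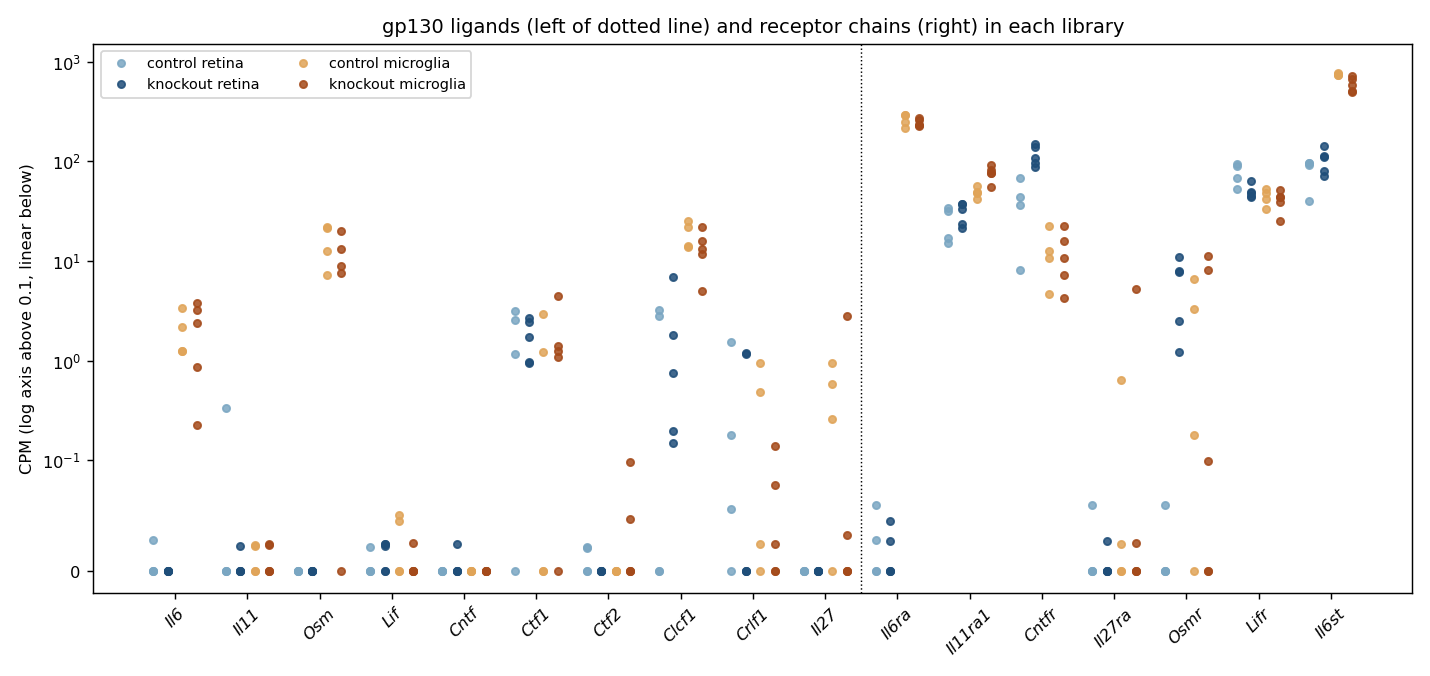
CPM of 10 ligand and 7 receptor genes of the gp130 family in each of the 18 libraries, with colours for the 4 groups, on an axis that is logarithmic above 0.1 and linear below. Osm, Il6 and Il6ra are at or near 0 in every retina library and above it in nearly all microglia libraries, whereas Osmr is above 1 CPM in the 5 knockout retina libraries and scattered in microglia.

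Osmr, the oncostatin M receptor chain, was the 1 gene of the panel that passed the test between genotypes, in retina. It could pass the count filter there only through the knockout libraries, so that the direction of its change was fixed in advance. Its counts in control retina were 0, 2, 0 and 0, and in knockout retina 92, 482, 46, 317 and 321, which are 2.49, 10.9, 1.21, 7.78 and 7.99 CPM. The groups did not overlap, and replicates 1 and 3 were the lowest of the knockouts. The ratio of counts per total was 542 with a 95% counting interval of 149.8 to 4482, which covers counting error only, and the fitted log2 change was 8.50 (SE 1.52, edgeR adjusted p = 0.0306). DESeq2 gave an adjusted p of 7.4e-09 and limma voom 0.0351, and in the authors' deposited table the log2 change was 8.51 with an adjusted p of 7.2e-05. A pattern of at most 3 counts in every control and at least 30 in every knockout library was held by 34 genes (0.222% of those tested), and the mirrored pattern by 0. Osmr lies at chr15:6813577-6874969 on the minus strand of GRCm38, and its 17 merged exons of 12113 bases share none with another annotated gene.

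The call for Osmr in retina stood in 5 of 9 fits that left out 1 library. It was lost without control retina replicate 1 (edgeR adjusted p = 0.0546) or 3 (0.0702) and without knockout retina replicate 2 (0.0653) or 4 (0.0644), while the log2 change stayed between 8.13 and 10.96. It was also lost in a fit over all 18 libraries (0.155) and with the level of the rod markers (0.600), the level of the Müller glia markers (0.218) or the count of detected genes (0.327) as a covariate, with log2 changes of 8.51, 11.5, 10.9 and 11.2. The count of detected genes did not overlap between control (16510 to 18715) and knockout retina (18761 to 19713). The rod marker sums, given below, did not overlap either. Fits with the rod marker level or the count of detected genes therefore cannot separate the covariate from the genotype. The level of the Müller glia markers, also given below, did overlap between genotypes.

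Marker levels of other cell types in the retina libraries are given here by genotype and were not related to Osmr library by library. The 12 endothelial and pericyte markers summed to 121 to 244 CPM in control and 246 to 524 CPM in knockout retina, with 1 of 12 called (Tie1, named after its values were seen, 0 reads in controls and at least 619-fold higher in knockouts per total count). Tie1 could pass the count filter only through the knockouts, so that its direction was fixed in advance. Müller glia markers summed to 2013 to 5313 against 3973 to 7413 CPM with 0 of 18 called by edgeR (unadjusted p under 0.05 in 7, 4 by DESeq2, 0 by limma voom), and rod markers to 198756 to 288173 against 149761 to 189286 CPM with 6 of 18 called lower. Of the bipolar markers 7 of 12 were called higher, and of the cone markers 4 of 12, with 0 of either list called lower. Of the monocyte and border macrophage markers, which summed to 0.239 to 5.51 against 17.1 to 19.95 CPM, 2 were tested and 0 called, and Ccr2, S100a9, Cd163, Pf4, F13a1 and Ms4a7 had no read in knockout retina. Most of that sum was Lyve1, a marker of border macrophages and lymphatic vessels, named after its values were seen, at 0, 0, 4.56 and 5.22 CPM in control and 18.4, 16.7, 17.2, 18.8 and 19.8 CPM in knockout retina (log2 2.89, SE 1.502, edgeR adjusted p = 0.451). In bulk libraries such as these, more cells of a type and more RNA per cell cannot be told apart. The part of these differences in the level of Osmr was not tested beyond the covariate fits above, with the limit given there. Patchy detection was also common at this level: of 5170 genes with a mean of 1 to 10 CPM over the retina libraries, 46.2% had both a library with 3 or fewer counts and one with 30 or more within the controls, and 27.8% within the knockouts.

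In microglia Osmr was scattered over both genotypes. It was at 0.181, 3.29, 0 and 6.65 CPM in the controls against at 0, 11.3, 8.14, 0 and 0.0999 CPM in the knockouts. Each genotype had libraries at or near 0 and libraries above 3 CPM, and the log2 change was 0.63 (SE 2.18, edgeR adjusted p = 0.999). Uneven detection was common in the microglia libraries, where 30.01% of 4952 genes with a mean of 1 to 10 CPM had 3 or fewer and 30 or more counts within controls and 50.7% within knockouts.

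Il6st, the shared signalling chain gp130, had the highest level per kb of exon of the 10 in microglia. In retina it was at 91.6, 40.3, 95.1 and 96.8 CPM in the controls against 71.1, 113, 111, 141 and 79.2 CPM in the knockouts. These ranges overlap, and the log2 change was 0.35 (SE 0.29, edgeR adjusted p = 0.704). Its sign was turned by each covariate (rod markers -0.98, Müller markers -0.43, detected genes -0.47), of which only the Müller marker level overlapped between genotypes. In microglia it was at 760, 752, 727 and 736 CPM in the controls against 491, 711, 580, 664 and 509 CPM in the knockouts. All 5 knockout microglia libraries lay below all 4 controls, a pattern held by 1.45% of the genes tested in that direction, but the log2 change of -0.33 (SE 0.11) did not pass after adjustment (edgeR adjusted p = 0.650, DESeq2 0.302, limma voom 0.339). Between control microglia and control retina Il6st was 10.2-fold higher in microglia (log2 3.35, SE 0.29, edgeR adjusted p = 5.5e-05).

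Lifr, which pairs with gp130 to bind LIF, did not pass the test in any comparison. It was at 67.3, 94.6, 89.1 and 52.9 CPM in control and 44.2, 45.3, 48.8, 48.1 and 63.5 CPM in knockout retina. Only knockout replicate 5 reached into the control range, and the log2 change of -0.60 (SE 0.20) had an edgeR adjusted p of 0.176. That change was 0.15 with the rod marker level as a covariate, which did not overlap between genotypes. In microglia Lifr was at 33.5 to 52.2 CPM in the controls against 25.3 to 51.9 CPM in the knockouts (log2 change -0.11, SE 0.23, edgeR adjusted p = 0.999). Between control microglia and control retina its log2 difference was -0.64 (SE 0.24, edgeR adjusted p = 0.0677, and 0.0303 without control retina replicate 4). Lifr and Osmr are neighbours on chromosome 15, 215.6 kb apart, and had log2 changes of opposite sign in knockout retina.

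The ligand-specific receptor chains divided between the fractions. Il6ra, the interleukin-6 receptor chain, had 3 reads over the control retina libraries and 3 over the knockout ones, against 250, 288, 289 and 215 CPM in control and 232, 227, 272, 260 and 231 CPM in knockout microglia. Its ratio between control fractions was 14839.7 with a 95% counting interval of 5078 to 71962 (edgeR adjusted p = 3.8e-06). Il11ra1, the interleukin-11 receptor chain, was at 49.0 ± 6.20 CPM in control microglia and 24.5 ± 9.88 CPM in control retina (SD, n = 4 each; log2 1.15, SE 0.31, edgeR adjusted p = 0.0202), and had the smallest p of the list between knockout and control microglia (76.4 ± 13.01 CPM, n = 5; log2 0.64, SE 0.17, edgeR adjusted p = 0.375). Cntfr, the CNTF-binding chain, named after its values were seen, was at 36.8, 8.04, 43.7 and 68.5 CPM in control and 87.7, 107, 138, 149 and 97.1 CPM in knockout retina. All 5 knockouts lay above all 4 controls, as for 5.61% of the genes tested, and the log2 change of 1.56 (SE 0.49) had an adjusted p of 0.160 with edgeR, 0.0128 with DESeq2 and 0.0782 with limma voom. Of the 7 receptor genes, 5 were tested in retina with 1 called (Osmr; 2 by DESeq2, 1 by limma voom) and a median log2 change of 0.35. In microglia 6 were tested with 0 called by edgeR (unadjusted p under 0.05 in 2, 1 by DESeq2, 0 by limma voom) and a median of -0.07, and between fractions 3 of 5 were called higher in microglia and 0 lower, with a median of 1.15 against 0.02 over all genes.

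**Figure D3:**
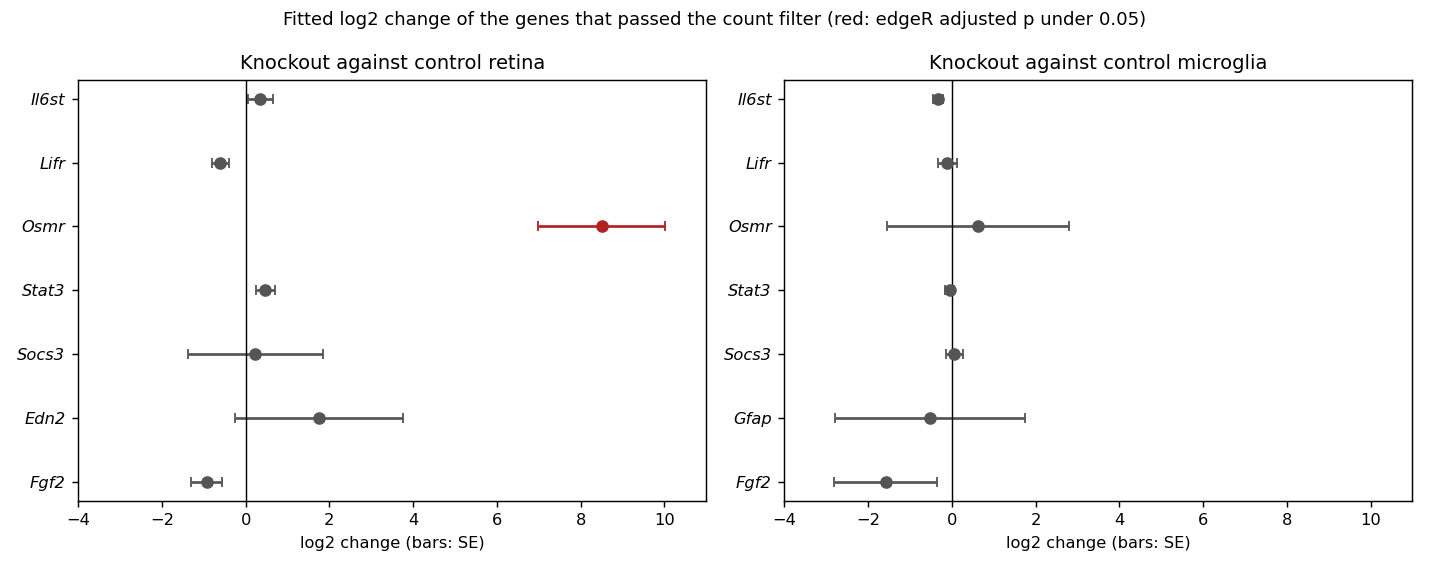
Fitted log2 change between knockout and control for the 7 genes of the panel that passed the count filter in each fraction, with bars of 1 SE. Osmr in retina, at 8.50, is the 1 gene past the threshold. Il6st, Lifr and Stat3 have the shortest bars in both fractions together with Fgf2 in retina and Socs3 in microglia.

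Stat3, the transcription factor downstream of gp130, did not differ by genotype beyond the spread between libraries. It was at 84.9, 71.6, 61.1 and 68.4 CPM in control and 91.7, 138, 122, 63.0 and 79.4 CPM in knockout retina. Knockout replicates 1, 2 and 3 were higher than any control and replicates 4 and 5 were within the control range (log2 change 0.47, SE 0.23, edgeR adjusted p = 0.416). In microglia it was at 307, 264, 258 and 259 CPM in the controls against 249, 272, 250, 226 and 312 CPM in the knockouts, which overlap (log2 change -0.05, SE 0.11, edgeR adjusted p = 0.999). Control microglia held 4.22-fold more than control retina (log2 2.08, SE 0.14, edgeR adjusted p = 1.7e-05).

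Socs3, the feedback inhibitor that STAT3 induces, was higher in microglia than in retina. It was at 150, 110, 84.3 and 94.6 CPM in control and 122, 82.2, 143, 112 and 113 CPM in knockout microglia, with overlapping groups (log2 change 0.06, SE 0.20, edgeR adjusted p = 0.999). In retina it was at 10.5, 4.96, 2.57 and 0 CPM in the controls against 2.58, 9.42, 8.25, 6.28 and 0 CPM in the knockouts, and each genotype had 1 library with no read (log2 change 0.23, SE 1.62, edgeR adjusted p = 0.979). The difference between control fractions was 4.75 on the log2 scale (SE 1.27, edgeR adjusted p = 0.0186).

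Socs3 was also the 1 gene of the 10 with a STAT motif in the 250 bases before its RefSeq start, and that stretch is shown for this reason. RefSeq promoter windows of GRCm38.p6 matched all 10 genes, 2 of them for Lifr. The motif searched was TTCNNNGAA, which is its own reverse complement, and 7.02% of 32851 windows of the same length hold it. In the stretch below, from chr11:117969452-117969616 on the minus strand, capitals mark the match, which lies 154 to 146 bases before the start. The stretch lies within the span of Socs3 in GENCODE M21 and outside its annotated exons.
Socs3: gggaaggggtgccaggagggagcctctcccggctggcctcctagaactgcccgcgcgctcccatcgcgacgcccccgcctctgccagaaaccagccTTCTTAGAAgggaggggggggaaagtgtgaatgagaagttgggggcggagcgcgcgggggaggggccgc
No window of the 10 genes held CACGTG, the E-box that CLOCK and BMAL1 are known to bind, on either strand, against 6.02% of all windows. TGANTCA, an AP-1 motif, was found on 1 or the other strand in the windows of Lif and Cntf, against 6.75% of all windows. A match in letters is not a bound site, and a window without a match says nothing of the factor.

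The wider JAK-STAT list of 14 transducers and feedback inhibitors had 0 calls in retina by edgeR (4 at an unadjusted p under 0.05, 2 by DESeq2, 1 by limma voom), with 9 positive and 5 negative changes and a median of 0.20. Stat5b, a STAT of cytokine and growth hormone receptors, was at 34.0 ± 19.9 CPM (SD, n = 4) in control and 110.3 ± 21.3 CPM (SD, n = 5) in knockout retina (log2 1.70, SE 0.43, edgeR adjusted p = 0.0924). Pias3, an inhibitor of STAT3, was at 94.96 ± 16.2 and 60.5 ± 10.7 CPM (log2 -0.65, SE 0.17, edgeR adjusted p = 0.0997). In microglia 0 of 12 were called by edgeR, DESeq2 or limma voom, with 0 unadjusted p-values under 0.05 and a median of -0.08, and the smallest p belonged to Ptpn11, a phosphatase recruited to gp130 (log2 0.65, SE 0.30, edgeR adjusted p = 0.863). Between control fractions 6 of 13 were called higher in microglia, among them Stat3, Ptpn6, Jak1 and Stat5b, and Pias3 was called lower (log2 -1.53, SE 0.20, edgeR adjusted p = 0.000476). Ptpn6, a phosphatase of blood and microglial cells, was at 664 ± 73.0 CPM in control microglia and 1.78 ± 0.232 CPM in control retina (SD, n = 4 each).

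STAT3 target genes, a list of 16 that includes Socs3, likewise differed by fraction. In retina 10 were tested with 0 called by any of edgeR, DESeq2 and limma voom and an unadjusted p under 0.05 in 3, and the median was 0.47 with 8 positive. The smallest p-values were those of Bcl2l1, a survival gene (65.7 ± 11.9 against 85.8 ± 5.58 CPM; log2 0.39, SE 0.14, edgeR adjusted p = 0.234), and Hif1a, the hypoxia factor (700.5 ± 121.5 against 549.5 ± 63.8 CPM; log2 -0.35, SE 0.13, edgeR adjusted p = 0.259). In microglia 15 were tested with 0 called by edgeR (unadjusted p under 0.05 in 2, 1 by DESeq2, 0 by limma voom) and a median of -0.03, and the cyclin gene Ccnd1 was at 88.6 ± 15.2 against 142.7 ± 15.8 CPM (log2 0.69, SE 0.14, edgeR adjusted p = 0.186). Between control fractions 13 of 15 were called higher in microglia and Hif1a lower, with a median of 4.75, and the median was the same with genes at 0 reads set to their bound. Examples are Junb at 582.7 ± 77.9 against 15.6 ± 4.78 CPM, Mcl1 at 304.2 ± 29.1 against 46.9 ± 14.7 CPM, Cebpb at 82.1 ± 8.59 against 0.867 ± 0.391 CPM (SD, n = 4 each) and Myc, which had no read in control retina and was at least 5873-fold higher in microglia. Icam1 had 2 reads over control retina, for a ratio of 18678 with a 95% counting interval of 5170 to 154233.

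Gfap, the intermediate filament of astrocytes and of reactive Müller glia, was found in some libraries of each group and was absent from others. Its counts were 0, 0, 0 and 563 in control retina and 223, 0, 86, 0 and 2 in knockout retina, or up to 12.6 and 6.04 CPM. The highest Gfap of the retina libraries was thus in a control, and the gene did not pass the filter for the retina test. In microglia the counts were 500, 1, 112 and 0 in controls and 0, 0, 1, 161 and 278 in knockouts (log2 change -0.53, SE 2.27, edgeR adjusted p = 0.999), and without control microglia replicate 1 the log2 change was 1.44. The astrocyte markers summed to 271 to 299 CPM in control and 311 to 465 CPM in knockout retina with 0 of 3 tested called by any of edgeR, DESeq2 and limma voom and an unadjusted p under 0.05 in 1. Most of that sum was Slc1a2 (168.3 ± 31.3 against 158.6 ± 23.4 CPM) and Aqp4 (95.3 ± 35.4 against 169.3 ± 55.1 CPM). Aqp4 is also on the Müller glia list. Pax2, Ntsr2 and Slc39a12 had at most 5 reads over the libraries of either retina group.

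The list of 23 reactive gliosis genes, which holds Gfap and Osmr, had 12 members tested in retina. All 12 had a positive log2 change, with a median of 0.72 against 0.00 over all genes. Of the 12, 1 was called (Osmr, with 2 by DESeq2 and 1 by limma voom). Osmr and Nes, with 2 and 0 reads over the control libraries, could pass the filter only through the knockouts. Their positive sign was thus fixed in advance, and the share of positive changes over all genes is not given here. Müller glia markers, of which all 18 were tested, were also all positive, with a median of 0.65, and the part of this difference in the list was not tested. Vim, a filament gene of Müller glia, named after its values were seen, was at 28.7, 26.8, 14.4 and 43.4 CPM in control and 39.6, 53.0, 41.8, 73.1 and 39.0 CPM in knockout retina (log2 0.80, SE 0.33, edgeR adjusted p = 0.294). Nes, the nestin gene of neural progenitors and reactive glia, had 0 reads in control retina and 91, 283, 2, 79 and 11 in knockout retina, at least 134-fold higher per total count (adjusted p = 0.0884 with edgeR, 0.000145 with DESeq2, 0.107 with limma voom). Serpina3n and Ptx3, astrocyte reactivity genes also named after their values were seen, had reads in 1 and 2 knockout retina libraries, as 73 reads in replicate 4 and 91 and 102 in replicates 4 and 5, and 0 in the 4 controls. Timp1, Aspg and Slc10a6 of the same list had 0 reads in knockout retina and 2, 1 and 1 in control retina. Cxcl10, Cd109 and Emp1 had 1, 2 and 4 reads over the knockout retina libraries. In microglia 14 were tested with 0 called by any of edgeR, DESeq2 and limma voom and an unadjusted p under 0.05 in 1, a median of 0.16, and Cd44, a hyaluronan receptor, at 19.2 ± 8.36 against 41.5 ± 16.8 CPM (log2 1.11, SE 0.43, edgeR adjusted p = 0.763). Between control fractions B2m, the MHC class I light chain (2736 ± 160.8 against 8.49 ± 1.07 CPM), Nes and Cxcl10 were called higher in microglia and S1pr3 lower, of 11 tested.

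**Figure D4:**
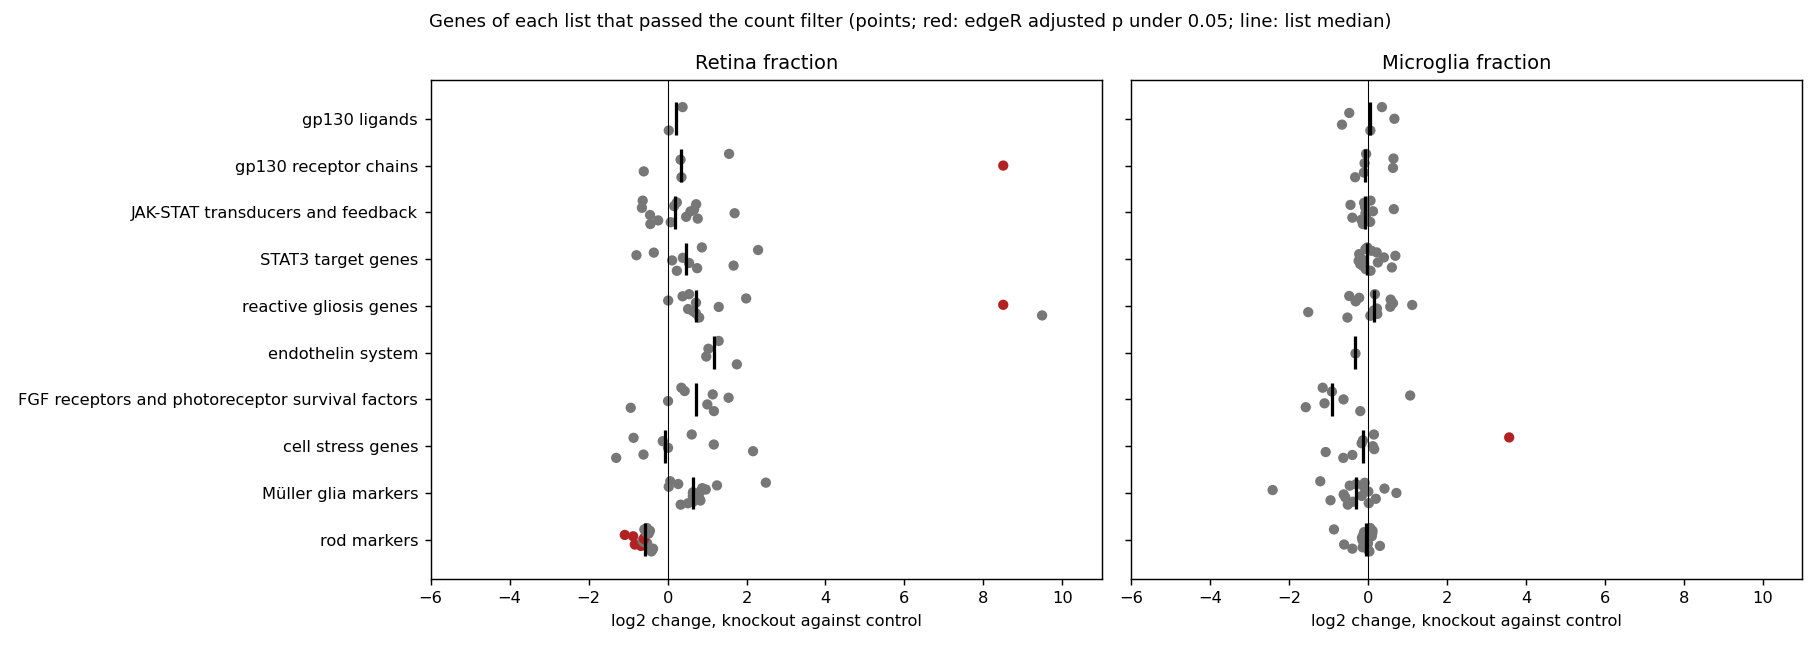
Log2 change between knockout and control of every tested gene of 8 pathway lists and of the Müller glia and rod markers, in retina and in microglia, with red points past the threshold and a line at each list's median. In retina the gliosis genes and the Müller glia markers lie to the right of 0 (medians 0.72 and 0.65) and the rod markers to the left (median -0.57), with Osmr far to the right in both lists that hold it.

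Edn2, the endothelin that stressed photoreceptors are known to express, was detected mainly in retina. Its counts were 0, 0, 0 and 91 in control and 0, 129, 94, 89 and 42 in knockout retina, or up to 2.03 and 2.91 CPM. Edn2 was thus seen in 1 of 4 control and 4 of 5 knockout retina libraries, and its log2 change of 1.75 (SE 2.00) had an edgeR adjusted p of 0.808. Without control replicate 4 no control library held a read, and with the rod marker level or the count of detected genes as a covariate it was -2.79 or -3.27. Neither covariate overlapped between genotypes. In microglia Edn2 was at 0 in all libraries but knockout replicate 1, which had 96 reads. Of the 7 genes of the endothelin system 4 were tested in retina, all positive, with a median of 1.16 and 0 called by edgeR (unadjusted p under 0.05 in 1, 1 by DESeq2, 0 by limma voom). Edn2, with reads in 1 of 4 control libraries, could not have passed the filter without its knockout libraries. The same holds for Ednra (1, 149, 0 and 0 reads in control retina) and Ednrb (215, 0, 475 and 6 reads). The filter thus favoured a positive sign for these genes, and the share of positive changes over all genes is not given here. Ece1, the endothelin converting enzyme, was at 29.8 ± 17.1 CPM in control and 73.0 ± 19.1 CPM in knockout retina (log2 1.29, SE 0.39, edgeR adjusted p = 0.148). Ece1 was the 1 gene of the list tested in microglia, where it had -0.33 on the log2 scale (SE 0.72, edgeR adjusted p = 0.999) and no call by DESeq2 or limma voom.

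Fgf2, a growth factor that protects photoreceptors, lay lower in the knockout libraries of both fractions without passing the test in either. It was at 11.8, 19.8, 12.5 and 19.2 CPM in control and 6.59, 11.3, 8.67, 10.3 and 4.43 CPM in knockout retina. All 5 knockouts lay below all 4 controls, as for 3.22% of the genes tested, and the log2 change of -0.93 (SE 0.37) had an adjusted p of 0.284 with edgeR, 0.137 with DESeq2 and 0.164 with limma voom. In microglia it was at 3.81, 4.35, 2.85 and 4.09 CPM in the controls against 2.48, 0.103, 0, 1.94 and 1.77 CPM in the knockouts. These groups did not overlap either, as for 1.45% of the genes tested in that fraction and direction (log2 -1.58, SE 1.23, edgeR adjusted p = 0.999). Its level in control microglia was below that of control retina, with a log2 difference of -1.92 (SE 0.38, edgeR adjusted p = 0.00434). Fgf2 shares 640 of its 6782 exonic bases (9.44%) with Nudt6 on the opposite strand, and whether counting used strand is not given in the sources used here.

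Of the 12 FGF receptor and photoreceptor survival genes, 8 were tested in retina, with 7 positive, a median of 0.72 and 0 called by edgeR (unadjusted p under 0.05 in 4, 1 by DESeq2, 0 by limma voom). Fgf2 was the 1 negative gene. Fgf1 (0, 0, 0 and 508 reads in control retina) and Fgfr4 (367, 0, 323 and 0 reads) could not have passed the filter without their knockout libraries. The share of positive changes over all genes is not given here. Ntrk2, the BDNF receptor, was at 43.6 ± 21.7 against 96.3 ± 8.66 CPM (log2 1.14, SE 0.34, edgeR adjusted p = 0.138), and Fgfr1, an FGF2 receptor, at 15.1 ± 7.75 against 30.4 ± 8.24 CPM (log2 1.01, SE 0.37, edgeR adjusted p = 0.241). In microglia 0 of 7 were called by edgeR, DESeq2 or limma voom, with 0 unadjusted p-values under 0.05 and a median of -0.92. Between control fractions Vegfa, Fgf2 and Ngfr were called lower in microglia and 0 of 7 higher.

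Among 10 general cell stress genes 8 were tested in retina, 4 with positive and 4 with negative changes and a median of -0.06, and 0 were called by edgeR (unadjusted p under 0.05 in 3, 2 by DESeq2, 0 by limma voom). The smallest p-values belonged to genes at lower levels in the knockouts. The injury-response factor Atf3 was at 17.3, 35.7, 36.7 and 27.5 CPM in control and 6.40, 15.5, 8.96, 14.4 and 14.1 CPM in knockout retina (log2 -1.30, SE 0.35, edgeR adjusted p = 0.103). Ier3, an immediate early gene, was at 69.0 ± 12.1 against 37.9 ± 8.92 CPM (log2 -0.86, SE 0.21, edgeR adjusted p = 0.0782). In microglia 1 of 9 was called: Cdkn1a, the p21 cell cycle inhibitor, at 26.9, 19.2, 17.5 and 16.9 CPM in the controls against 240.02, 274, 291, 213 and 178 CPM in the knockouts (log2 3.57, SE 0.21, edgeR adjusted p = 0.000118). Between control fractions 2 of 9 were called higher in microglia and 3 lower.

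Whether the genotype difference differed between fractions was tested with an interaction term, written as microglia minus retina. None of the 8 tested genes of the panel passed with edgeR, with 2 at an unadjusted p under 0.05 (Osmr and Il6st), 1 called by DESeq2 (Edn2, adjusted p = 0.00887) and 0 by limma voom. The value for Osmr was -7.87 (SE 2.97, edgeR adjusted p = 0.269), so that its call in retina and not in microglia is not shown to be a difference between the fractions. Il6st had -0.73 (SE 0.34, edgeR adjusted p = 0.384) and Stat3 -0.56 (SE 0.27, edgeR adjusted p = 0.409). Edn2 had 5.47 (SE 3.48, edgeR adjusted p = 0.594), and -1.83 without knockout microglia replicate 1, the 1 microglia library with reads. The other 4, Lifr, Fgf2, Socs3 and Gfap, lay between -0.69 and 0.46. Of the pathway lists 1 gene was called, Nes (-9.19, SE 1.71, edgeR adjusted p = 0.0355), which was at 20.02 ± 3.15 CPM in control and 23.5 ± 13.1 CPM in knockout microglia.

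Per kb of exon, with all 18 libraries scaled together, the order of the 10 genes differed between fractions. In control retina Stat3 (6.96 ± 0.932 CPM per kb), Il6st (6.76 ± 2.25) and Lifr (6.55 ± 1.71) had the highest levels and lay within their spreads of each other, followed by Fgf2 (2.17 ± 0.591) and Socs3 (1.44 ± 1.43). In control microglia Il6st (71.1 ± 1.55) led, with Socs3 (40.2 ± 10.5) and Stat3 (30.2 ± 2.58) next, closer to each other than the SD of Socs3, and Lifr at 4.34 ± 0.805 CPM per kb (SD, n = 4 for each). Knockout retina had the order Stat3, Il6st, Lifr, Socs3, Fgf2 and knockout microglia Il6st, Socs3, Stat3, Lifr. Osmr had 0.00116 ± 0.00231 CPM per kb in control and 0.478 ± 0.320 in knockout retina (SD, n = 4 and 5), so that in the knockouts it ranked below Edn2 (1.13 ± 0.780) and above Gfap (0.377 ± 0.590), neighbours that did not differ beyond their spread.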

How the data were processed

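RNA was extracted from sorted retinal cells and made into cDNA with a SMARTer Ultra Low kit from 1 to 2 ng, per the labels' protocols, and such amplification means that counts do not stand for independent molecules. The authors deposited raw counts per gene for 18 libraries. DRAGEN, STAR 2.7.9a, Subread, featureCounts, edgeR and limma and the build GRCm38 are named without a role in the submitters' processing notes. For both knockout comparisons the authors deposited their own results as log2 values (fold change and mean CPM), a score from a likelihood ratio test and raw and adjusted p-values, per the file headers.

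Of 55774 lines, 287 repeated an identifier, 55487 genes were kept and 55141 were found in GENCODE M21 (GRCm38), which gave positions and exon lengths. No 2 libraries were identical. The test was edgeR's quasi-likelihood F test (version 4.0.16, R 4.3.3), with low counts removed by filterByExpr and library sizes scaled by TMM, on the 9 libraries of a fraction, all 18 for the interaction and the 8 control libraries for the fractions, and genes were called where the p adjusted over all genes tested (Benjamini-Hochberg) was under 0.05. SE is the log2 change over the square root of F, and CPM are scaled by TMM within a fraction. Alternatives were DESeq2 size factors, no filter, at least 1 CPM in 4 libraries, a replicate block, DESeq2 1.42.0, limma 3.58.1 (voom), a fit of all libraries, marker levels or the count of detected genes as covariates, and leaving out each library. The code was tested on simulated counts. Named genes are the 10 members, and of each of 8 pathway lists the called genes (at most 6) or else the 2 with the smallest p; 10 marker lists are given by counts and summed levels. Some genes that the rule takes are left out of the text. The RPE, amacrine and ganglion cell markers had 0 of 2 and 1 of 12 called in retina. Members and lists were chosen with earlier results of these data known.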

Additional observations from a re-analysis of the deposited data

Results flagged for a closer look

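Of 30 groups of 4 or 5 libraries in which a gene of the panel was detected, 6 had a library that stood apart from the rest of its group, where chance gives about 1 such group in 20 for normally distributed values, a rate not tested here for groups with most libraries at 0. Il6st in control retina replicate 2, at 40.3 CPM, lay below the other controls. Lifr in knockout retina replicate 5, at 63.5 CPM, and Stat3 in control microglia replicate 1, at 307 CPM, lay above theirs. Gfap and Edn2 were each found in 1 of 4 control retina libraries, replicate 4 in both cases, at 12.6 and 2.03 CPM, with 0 reads in the other 3. Edn2 was found in 1 of 5 knockout microglia libraries, replicate 1, at 2.25 CPM.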

How the results depend on the processing

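The counts of all genes called were 255 in retina, 17 in microglia, 85 for the interaction and 6100 between fractions. With no filter on low counts the retina and microglia counts were 120 and 8; with DESeq2 1184 and 237, and 1087 for the interaction; with limma voom 26 in microglia and 145 for the interaction; and 32 in microglia in the fit of all 18 libraries. With the rod marker level, the Müller glia marker level and the count of detected genes (the last added after seeing the data) as covariates, the retina counts were 0, 1 and 2 and the microglia counts 9, 8 and 5. In retina the rod marker level and the count of detected genes did not overlap between genotypes, so those fits cannot separate covariate from genotype. Leaving out 1 library gave 96 to 342 calls in retina, 4 to 21 in microglia, 51 to 143 for the interaction and 5328 to 5854 between fractions. The retina count was 137 without control replicate 3 and 141, 123, 96 and 112 without knockout replicates 1 to 4; the microglia count was 5, 5, 4 and 5 without control replicates 1 to 4; and the interaction count was 51 without control microglia replicate 3 and 143 without control retina replicate 4. Same-numbered libraries did not deviate together (correlations over genes of -0.0589 to 0.0476, and few were closest to their own number), so the replicate number was not taken as a pairing. With the replicate block the counts were 0, 2, 9 and 4436, Osmr in retina had an edgeR adjusted p of 0.129 and Socs3 between fractions 0.0541, and the block turned the log2 change of Osmr in microglia to -0.90, of Lifr in microglia to 0.033, and the interactions of Gfap and Edn2 to -6.82 and -1.79.

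Of 524 alternative values for the panel, 475 kept their direction and side of the threshold, and 37, in 12 of 27 results, changed direction; none of these was called. In retina the rod marker level as a covariate gave -0.98 for Il6st, 0.15 for Lifr, -2.45 for Socs3 and -2.79 for Edn2, the Müller glia marker level -0.43 for Il6st, and the count of detected genes -0.47 for Il6st, -0.025 for Socs3 and -3.27 for Edn2. In microglia limma voom gave -0.62 for Osmr, the Müller glia marker level -0.068 for Socs3, and the count of detected genes -0.060 for Osmr, 0.18 for Stat3 and 0.16 for Gfap. For the interaction limma voom gave -2.13 for Gfap and -2.36 for Edn2. Leaving out 1 library gave log2 changes of -0.16 to 1.0996 for Socs3 in retina, of -0.22 to 0.022 for Lifr, -0.13 to 0.0076 for Stat3, -0.048 to 0.24 for Socs3 and -0.94 to 1.44 for Gfap in microglia, and of -1.07 to 0.18 for Socs3, -9.56 to 2.29 for Gfap and -1.85 to 5.89 for Edn2 in the interaction. The cause of these changes was not tested. With 4 and 5 libraries and counts at 0 in many of them, Gfap, Edn2, Lif and Cntf allow no statement on a difference between genotypes, and a level under 0.0631 to 0.0929 CPM was not detectable in a single library.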
